A study of Mus musculus with 21 samples.

Results

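Crush of the optic nerve at postnatal day 3 (P3) was compared with uncrushed retinas of the same age, over 8 of the 21 libraries of the series. The members were 44 of the 46 genes left in the table once repeated entries were dropped, and Kdm5d was not among them. Each library held the poly(A) RNA of 1 retina from a C57BL/6 wild-type mouse. In the 4 P3_ONC retinas the optic nerve had been crushed behind the eyeball for 5 seconds under ice anaesthesia, and the retina was taken 6 hours later. The 4 P3_NTC retinas came from naïve pups with no crush. Per the paper, operated pups were kept on a heated plate for the 6 hours after surgery. With no sham operation described, cooling, surgery, warming and crush cannot be told apart. The pups of 1 age came from 1 litter. The study's methods name about as many mice as libraries a group and take each retina as a biological replicate. They do not tie retinas to mice, so p-values measure the spread between these retinas. Its results state 3 samples a group, against 4 P3 libraries a group here. The study's own P3 comparison may therefore have used fewer libraries. The E20 groups were at embryonic day 20 and the P1 groups at postnatal day 1, each crushed or naïve. Per the paper, pregnant mice were given xylazine and ketamine and killed, so the E20 groups may differ in more than age. Both ages were used to ask whether the effect at P3 differed from theirs. They also served for the share of Gm39119 at its locus and in an alternative fit of all 6 groups.

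The retina of a newborn mouse is still being built: ganglion cells are in place, progenitors go on dividing, and rods begin to switch on the genes of light detection. Ganglion cells send their axons into the optic nerve, so a crush cuts the output of the retina while the other cell types are not cut. Immediate early genes are transcription factors switched on within minutes to hours by injury or activity. The retinal pigment epithelium is the sheet behind the retina that feeds the photoreceptors and forms part of the barrier to the blood, and it can stay attached when a retina is dissected.

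Counts were fragments assigned to a gene, and FPKM is fragments scaled to gene length and to the library's total of assigned fragments. Library totals ran between 14582301 and 17341849 fragments in P3_ONC, and between 14221911 and 17756577 in P3_NTC. The genes of the table took between 0.158% and 0.461% of the fragments of a P3 library. Nrl, a rod marker, was at 127 FPKM or more in all 8 libraries, so the labelled tissue was present in each. The Y-linked gene Kdm5d had 1 fragment in P3_ONC_1 and 656 or more in each of the other P3 libraries, so P3_ONC_1 stood apart there. The genes analysed here are ones the study named for their changes with age or with crush. Those named for crush were picked without genes that also changed at P3. Those named for age were picked from P3_NTC against E20_NTC, so the naïve P3 group used here entered that choice. For them, a move of P3_ONC towards the E20 level was favoured in advance. Ttr and Slco1a4, named as higher with age, and Gm39119, named as lower, are among them. The counts of calls below are therefore counts over chosen genes.

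Calls needed an adjusted p under 0.1 together with a fold over 1.5 (edgeR quasi-likelihood test, Benjamini-Hochberg over the 45 genes with at least 10 summed counts). One gene was called higher in P3_ONC, the noncoding RNA Gm39119, which is 2.22% of the genes tested. Ttr and Slco1a4 were called lower, which is 4.44%. Over the 43 described genes tested, 20 had a positive log2 fold change and 23 a negative one, with a median of -0.13. Of the 40 that were not called, 19 were positive and 21 negative. At an unadjusted p under 0.05 there were 10 genes. Sox14, a transcription factor of interneurons, had 2 fragments in all in P3_ONC and 2 in P3_NTC and was not tested.

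**Figure D1:**
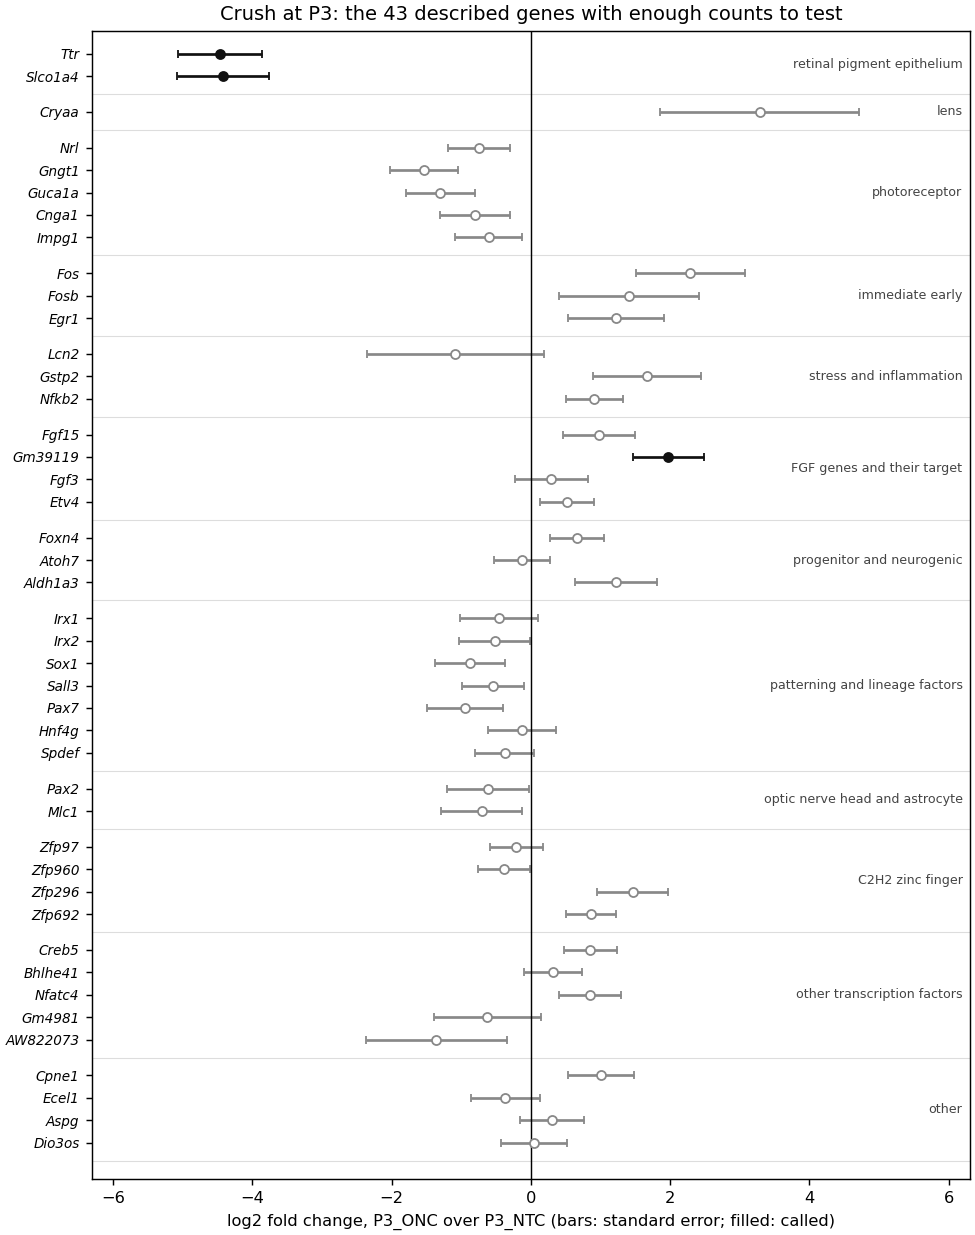
Log2 fold change of P3_ONC over P3_NTC (horizontal axis) for the 43 described genes tested, grouped by list (labels at right). Points are the edgeR estimates, bars their standard errors and filled points the 3 called genes: Ttr at -4.47 and Slco1a4 at -4.42 lie far to the left, and Gm39119 at 1.98 to the right.

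The largest differences were in the pair of pigment epithelium genes, both about 20 times lower after crush. Ttr encodes transthyretin, a carrier of thyroid hormone and of the retinol-binding protein that the pigment epithelium makes and secretes. Its levels were 4.54, 11.8, 10.2 and 17.5 FPKM in the 4 P3_ONC retinas, against 124, 291, 396 and 159 FPKM in the 4 P3_NTC retinas. The groups did not overlap: the highest P3_ONC value lay far below the lowest P3_NTC value. Ttr was 22.1-fold lower in P3_ONC (log2 fold change -4.47 ± 0.60 SE, adjusted p = 0.000698). Slco1a4 encodes an organic anion transporter found at barriers between blood and neural tissue. It had 0.0270, 0.118, 0.0924 and 0.153 FPKM in P3_ONC, against 1.00, 2.49, 3.71 and 1.23 FPKM in P3_NTC, again without overlap. In fragments that was 3, 11, 9 and 16 in P3_ONC, against 107, 284, 338 and 128 in P3_NTC. Slco1a4 was 21.4-fold lower in P3_ONC (log2 fold change -4.42 ± 0.66 SE, adjusted p = 0.000916).

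These 2 genes were the only described genes whose P3_ONC libraries all lay below all P3_NTC libraries, 4.35% of the 46 genes of the table. They kept the same order of libraries within each group: P3_ONC_4 highest and P3_ONC_1 lowest, and P3_NTC_3 highest and P3_NTC_1 lowest. Slco1a4 fragments were 4.44% ± 0.92 of Ttr fragments in P3_ONC and 4.43% ± 0.38 in P3_NTC (SD, n = 4 each), a log2 difference of -0.02 ± 0.18 SE (exact permutation test, two-sided p = 0.943). The pair thus fell in step, within the spread of that ratio. In whole retinas, fewer cells of a type and less RNA per cell cannot be told apart. How much pigment epithelium stayed on each retina was not measured, and these 2 genes are the whole marker list for it here.

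The 250 bases upstream of the Slco1a4 start (chr6:141856221-141856470, GRCm38.p6, minus strand, RefSeq) are shown because Slco1a4 was 1 of the called genes and lies on a chromosome that can be printed here. They hold no exon base and none of the 7 motifs searched on both strands. The motifs, with the share of 32851 RefSeq windows of the same length that hold each, were TATAAA (12.4%), TAATCC (6.25%, a site of the photoreceptor factors CRX and OTX2), TGCTGA (16.1%, core of sites of NRL), TGACGTCA (1.55%, cAMP response element), the serum response element (0.0609%), TGACTCA (4.46%, AP-1 site) and CACGTG (6.02%, E-box). TGCTGA and TGACTCA can overlap in 1 stretch.
Slco1a4: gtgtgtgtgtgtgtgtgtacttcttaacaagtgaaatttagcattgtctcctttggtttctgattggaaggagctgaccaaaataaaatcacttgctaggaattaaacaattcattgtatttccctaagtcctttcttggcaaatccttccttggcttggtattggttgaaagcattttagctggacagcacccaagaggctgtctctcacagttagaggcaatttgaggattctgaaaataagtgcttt

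Cryaa encodes the alpha A crystallin, the main small heat shock protein of the lens. It had the largest positive fold change, and within P3_ONC its libraries spanned a 528-fold range. Cryaa was at 0.113, 59.6, 50.6 and 7.47 FPKM in P3_ONC, against 0.188, 8.44, 1.76 and 1.68 FPKM in P3_NTC. P3_ONC_1 was the lowest of all 8 libraries with 5 fragments, while P3_ONC_2 had 2221. In the naïve group P3_NTC_1 had 8 fragments and P3_NTC_2 had 383, so the groups overlapped. The log2 fold change was 3.28 ± 1.44 SE and did not pass (adjusted p = 0.197). Without P3_ONC_1 it was 3.70 and was called, while without P3_ONC_2 it was 2.68 and without P3_NTC_2 it was 4.60, both not called (adjusted p = 0.299 and 0.189). Cryaa is the only lens gene of the table, so whether lens tissue entered these libraries was not tested.

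**Figure D2:**
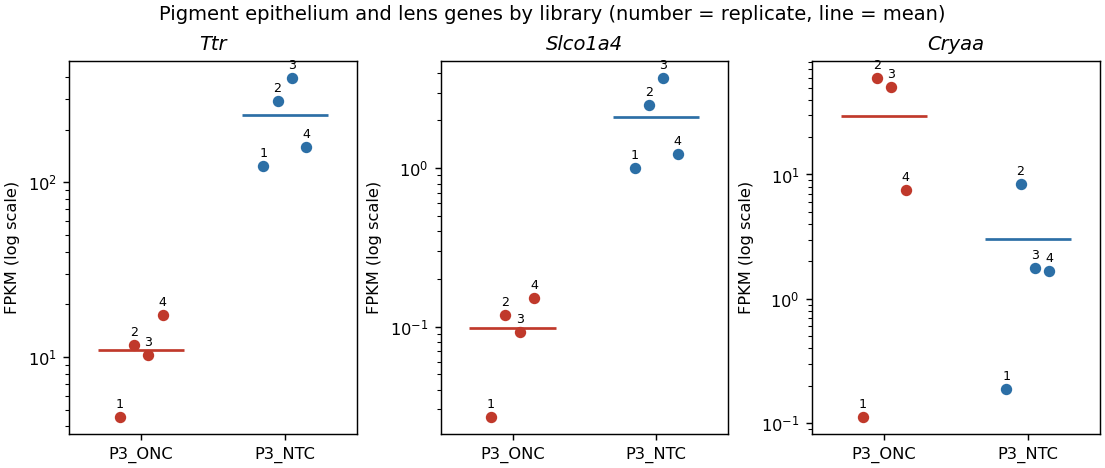
FPKM of Ttr, Slco1a4 and Cryaa (vertical axes, log scale) in the 4 P3_ONC and 4 P3_NTC libraries. Points are libraries marked with their replicate number and lines are group means. The groups stand apart for Ttr and Slco1a4 and overlap for Cryaa, where P3_ONC_1 (0.113 FPKM) and P3_NTC_1 (0.188 FPKM) are the lowest.

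All 5 photoreceptor genes had negative log2 fold changes, between -1.53 and -0.61 with a median of -0.80, and none was called. The median over all described genes tested was -0.13. All 5 were named by the study as higher in P3_NTC than in E20_NTC, so negative fold changes were favoured in advance. Nrl, the transcription factor that sets rod fate, was at 203, 145, 127 and 292 FPKM in P3_ONC, against 192, 370, 494 and 230 FPKM in P3_NTC. P3_NTC_1 and P3_NTC_4 were within the range of the crushed retinas, and the log2 fold change was -0.74 ± 0.45 SE (adjusted p = 0.259). Gngt1 encodes the gamma subunit of rod transducin, the G protein of light detection. Its FPKM was 24.4, 21.8, 20.6 and 33.9 in P3_ONC, against 31.0, 87.2, 127 and 46 in P3_NTC. Only P3_ONC_4 reached into the naïve range, above P3_NTC_1. Gngt1 had the lowest fold change of the list, -1.53 ± 0.49 SE on the log2 scale, and just missed the threshold (adjusted p = 0.114). It was called lower without P3_ONC_4, without P3_NTC_1 and without P3_NTC_4, at -1.71, -1.78 and -1.70, and over all libraries left out in turn it ran between -1.78 and -1.12. P3_ONC_4 and P3_NTC_1 made the groups overlap, so a call without either was favoured in advance. Gngt1 was not called without P3_ONC_1, P3_ONC_2, P3_ONC_3, P3_NTC_2 or P3_NTC_3. With all 8 libraries it was called by DESeq2 (-1.53, adjusted p = 0.0537), with median ratios (-1.78, adjusted p = 0.0769) and in 1 fit of all 6 groups (-1.53, adjusted p = 0.0166).

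Guca1a encodes a calcium sensor that activates guanylate cyclase in photoreceptors. It was at 31.9, 26.4, 21.3 and 56.5 FPKM in P3_ONC, against 40.4, 102, 135 and 59.0 FPKM in P3_NTC, with P3_ONC_4 above P3_NTC_1. The log2 fold change was -1.30 ± 0.50 SE (adjusted p = 0.157). Without P3_ONC_4 and without P3_NTC_1 it was called, at -1.66 and -1.53. Fold changes of the other 2 genes were nearer 0: Cnga1 (part of the channel that cyclic GMP opens in rods) was at -0.80 and Impg1 (a matrix proteoglycan made by photoreceptors) at -0.61. Their mean levels were 6.99 FPKM for Cnga1 in P3_ONC against 12.2 in P3_NTC, and 5.72 FPKM for Impg1 in P3_ONC against 8.71 in P3_NTC.

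Libraries ranked the same way for each of these photoreceptor genes. In P3_ONC the order was replicate 4, 1, 2, 3 from high to low in all 5 genes, and in P3_NTC it was 3, 2, 4, 1 in all 5. The summed FPKM of the 5 genes was 271, 204, 176 and 404 in P3_ONC, against 274, 583, 790.4 and 349 in P3_NTC. P3_NTC_1 and P3_NTC_4 lay within the crushed range, and P3_NTC_2 and P3_NTC_3 above it. The naïve order was shared by 10 of the 43 genes tested, which included Ttr, Slco1a4, Gstp2, Pax7 and Bhlhe41. What set the order was not tested.

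**Figure D3:**
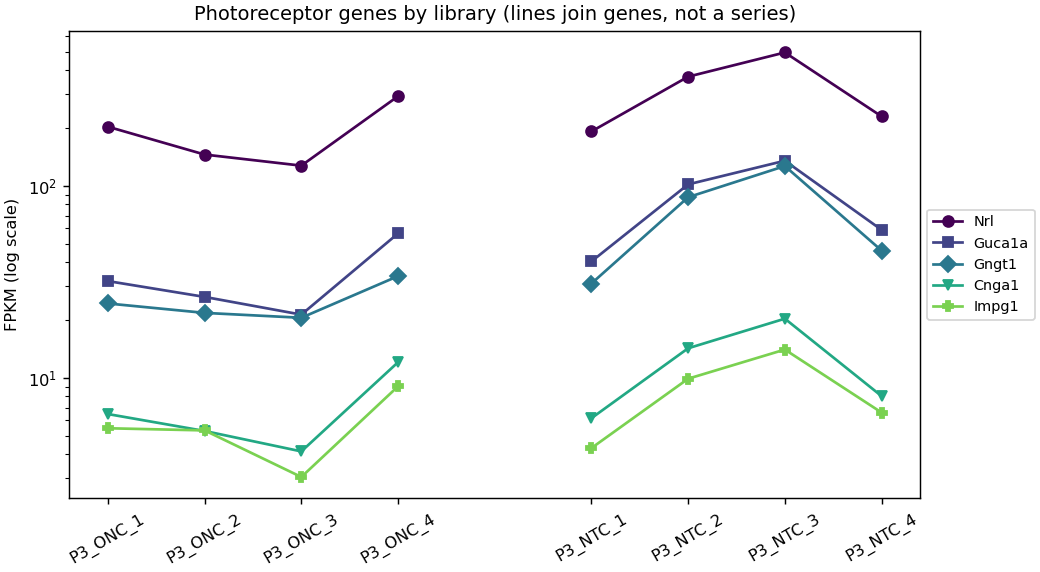
FPKM (vertical axis, log scale) of 5 photoreceptor genes in each P3_ONC library (left) and each P3_NTC library (right). Lines only join the points of 1 gene. All 5 genes are highest in P3_ONC_4 and P3_NTC_3, and lowest in P3_ONC_3 and P3_NTC_1.

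Dividing each gene by Nrl within its own library takes away only a shift of the same proportion in all rod genes. Within the naïve group, Gngt1 and Cnga1 relative to Nrl still ranked P3_NTC_3, P3_NTC_2, P3_NTC_4, P3_NTC_1, as their FPKM did. In P3_ONC these ratios did not keep the FPKM order. Whether a lower ratio goes beyond a shared shift was therefore not tested. Gngt1 fragments were 7.43%, 9.26%, 9.97% and 7.15% of Nrl fragments in P3_ONC, against 9.98%, 14.6%, 15.8% and 12.4% in P3_NTC. The groups did not overlap, although P3_ONC_3 and P3_NTC_1 nearly touched. The log2 difference was -0.64 ± 0.19 SE (exact permutation test, two-sided p = 0.0286, the smallest 4 against 4 can give, and 0.105 adjusted over the 11 ratios compared). Guca1a fragments were 2.41%, 2.78%, 2.57% and 2.96% of Nrl fragments in P3_ONC, against 3.23%, 4.22%, 4.19% and 3.94% in P3_NTC. That ratio did not overlap either, with a log2 difference of -0.53 ± 0.11 SE (exact permutation test, two-sided p = 0.0286, adjusted p = 0.105). Cnga1 and Impg1 overlapped between the groups relative to Nrl, with log2 differences of -0.05 ± 0.12 and 0.14 ± 0.16 SE. No ratio passed 0.1 once adjusted.

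**Figure D4:**
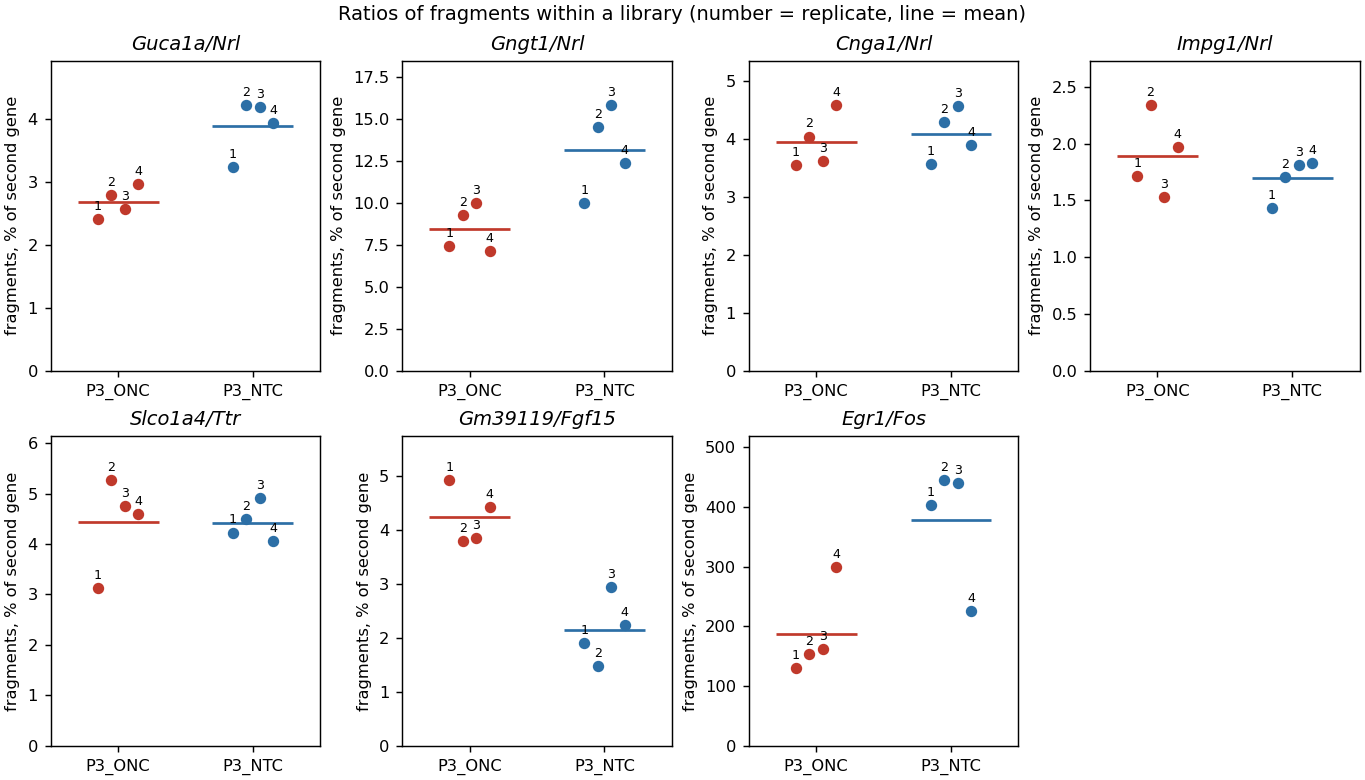
Fragments of 1 gene as a percentage of those of a second gene in the same library (vertical axes, from 0), for P3_ONC and P3_NTC. Points are libraries with their replicate number and lines are means. Guca1a/Nrl and Gngt1/Nrl are lower and Gm39119/Fgf15 is higher in all P3_ONC libraries, while Slco1a4/Ttr averages 4.44% in P3_ONC and 4.43% in P3_NTC.

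The window before the Guca1a start (chr17:47400607-47400856, GRCm38.p6, minus strand, RefSeq) is shown as that of a photoreceptor gene with a low ratio. It holds no exon base, and its capitals mark the match to TAATCC, read on the opposite strand. Windows of Gngt1, of Cnga1, whose ratio to Nrl overlapped between the groups, and of Spdef, no photoreceptor gene here, also matched TAATCC. Nothing about the ratios is read from the motif.
Guca1a: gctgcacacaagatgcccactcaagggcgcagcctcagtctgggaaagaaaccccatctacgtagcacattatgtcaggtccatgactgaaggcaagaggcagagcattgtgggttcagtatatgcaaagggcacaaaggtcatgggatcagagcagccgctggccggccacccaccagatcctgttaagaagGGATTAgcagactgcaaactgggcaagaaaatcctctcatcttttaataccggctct

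The 3 immediate early genes all had positive log2 fold changes, with a median of 1.41, and none was called. Fos, a subunit of the AP-1 transcription factor, was at 7.11, 5.34, 29.3 and 2.47 FPKM in P3_ONC, against 0.739, 1.89, 2.51 and 3.89 FPKM in P3_NTC. Every P3_ONC value was above the naïve mean, but P3_ONC_4 lay within the naïve range. The log2 fold change of Fos was 2.29 ± 0.79 SE (adjusted p = 0.121). It was called higher without P3_ONC_4, at 2.62, and with all libraries by DESeq2, at 2.29. P3_ONC_3 held 64.9% of the Fos fragments of the crushed group, and without it the log2 fold change was 1.14 (adjusted p = 0.304). Egr1, a zinc finger factor induced by activity and growth factors, was at 4.86, 4.31, 25.0 and 3.87 FPKM in P3_ONC, against 1.56, 4.41, 5.79 and 4.59 FPKM in P3_NTC. Here 3 of the 4 P3_ONC values lay in the naïve range, and P3_ONC_3 alone was high (log2 fold change 1.22 ± 0.69 SE, adjusted p = 0.252). Without P3_ONC_3 it was 0.09.

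Fosb, another AP-1 subunit, had 17, 20, 207 and 48 fragments in P3_ONC, against 6, 5, 32 and 69 in P3_NTC. P3_ONC_3 was again the highest library of its group. Without P3_ONC_3 the log2 fold change of Fosb went to -0.01, against 1.41 ± 1.00 SE with all 8 libraries (adjusted p = 0.357), and without P3_NTC_4 it was 2.30. Egr1 fragments were 187% ± 76.2 of Fos fragments in P3_ONC and 378% ± 104 in P3_NTC (SD, n = 4 each). The ratio overlapped between the groups (exact permutation test, two-sided p = 0.0571, adjusted p = 0.157).

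The window before the Fos start (chr12:85473640-85473889, GRCm38.p6, plus strand, RefSeq) is shown for the immediate early gene with the largest fold change. It holds no exon base, and the capitals mark its TATAAA.
Fos: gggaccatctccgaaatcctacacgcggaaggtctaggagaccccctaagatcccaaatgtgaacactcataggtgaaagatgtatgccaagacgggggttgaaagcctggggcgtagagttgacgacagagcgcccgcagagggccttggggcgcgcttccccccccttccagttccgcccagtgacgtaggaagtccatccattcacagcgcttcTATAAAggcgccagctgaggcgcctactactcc

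Of the 3 stress and inflammation genes, 2 had positive fold changes and 1 a negative one, and none was called. Lcn2 encodes lipocalin 2, an iron-carrier binding protein of inflamed tissue. It was at 0.572, 0.157, 0.627 and 4.41 FPKM in P3_ONC, against 0.160, 0.172, 2.68 and 9.23 FPKM in P3_NTC. A single library was high in the crushed group and a pair in the naïve group, so the log2 fold change of -1.08 had a large error (1.27 SE, adjusted p = 0.544). It was -2.75 without P3_ONC_4 and 0.53 without P3_NTC_4. Gstp2, a glutathione transferase, had 12, 7, 1 and 20 fragments in P3_ONC, against 1, 3, 6 and 2 in P3_NTC. P3_ONC_3 was its low exception (log2 fold change 1.67 ± 0.78 SE, adjusted p = 0.197, and 2.32 without P3_NTC_3). The paralog Gstp1 shares 49.1% of the 50-base windows of Gstp2, so reads of the pair may be mixed. Nfkb2, a subunit of the NF-kappaB factors, was at 1.54, 1.29, 1.28 and 0.651 FPKM in P3_ONC, against 0.802, 0.651, 0.406 and 0.672 FPKM in P3_NTC. P3_ONC_4 was the only crushed library within the naïve range (log2 fold change 0.91 ± 0.41 SE, adjusted p = 0.197), and Nfkb2 was called higher without it, at 1.11.

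**Figure D5:**
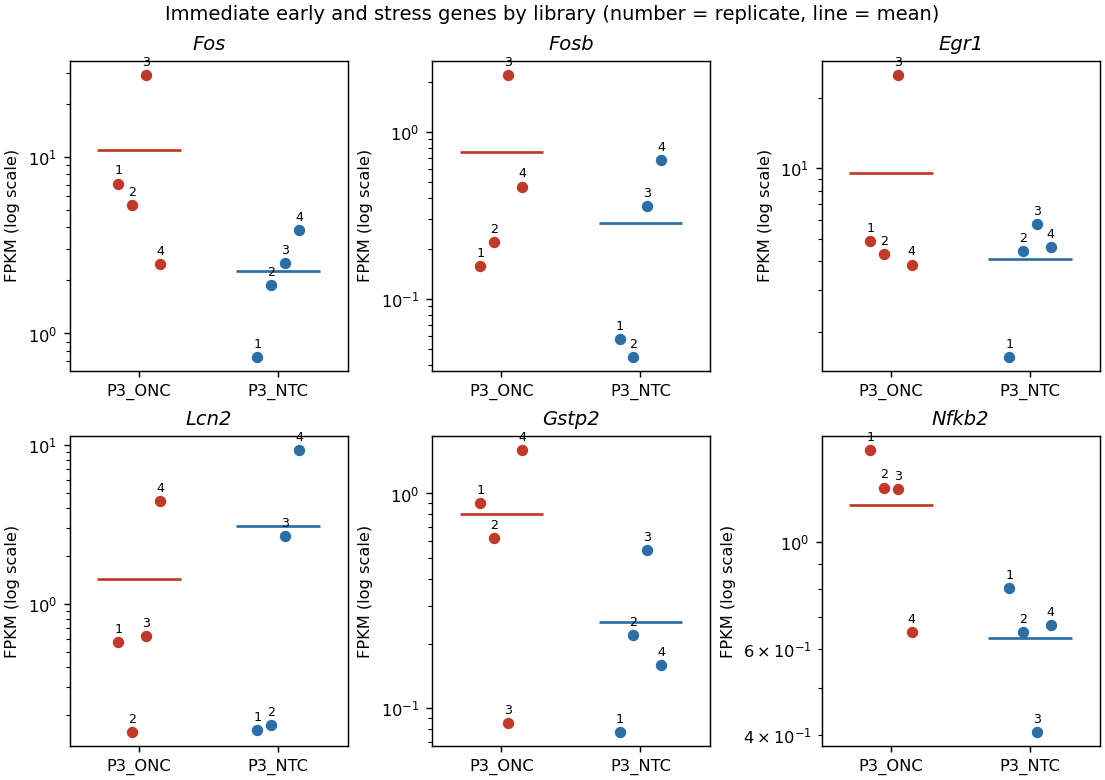
FPKM (vertical axes, log scale) of 3 immediate early genes (upper panels) and 3 stress genes (lower panels) in P3_ONC and P3_NTC. Points are libraries with their replicate number and lines are means. P3_ONC_3 is the highest library for Fos, Fosb and Egr1 (29.3, 2.18 and 25.0 FPKM), and P3_NTC_4 for Lcn2 (9.23 FPKM).

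Fgf15 is a growth factor gene of retinal progenitors, and Gm39119 is annotated as an antisense RNA at its locus. Gm39119 lies on the minus strand of chromosome 7 (144899313 to 144910085, mm10), across the end of Fgf15 (144896531 to 144900953, plus strand). Gm39119 had 31, 25, 26 and 15 fragments in P3_ONC, against 10, 3, 3 and 9 in P3_NTC. In FPKM this was 1.88, 1.80, 1.80 and 0.965 in P3_ONC, against 0.630, 0.178, 0.222 and 0.581 in P3_NTC. All crushed retinas were above all naïve retinas, with P3_ONC_4 nearest to them. Gm39119 was 3.93-fold higher in P3_ONC (log2 fold change 1.98 ± 0.51 SE, adjusted p = 0.0425). The call rests on few fragments: it was lost without P3_ONC_2, P3_ONC_3, P3_NTC_2 or P3_NTC_3, with log2 fold changes of 1.92, 1.92, 1.73 and 1.79 and adjusted p values of 0.119, 0.105, 0.153 and 0.125.

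Fgf15 itself was at 11.9, 14.8, 14.6 and 6.80 FPKM in P3_ONC, against 10.3, 3.72, 2.35 and 8.10 FPKM in P3_NTC. P3_ONC_4 lay within the naïve range (log2 fold change 0.97 ± 0.52 SE, adjusted p = 0.248). Gm39119 fragments were 4.91%, 3.78%, 3.85% and 4.41% of Fgf15 fragments in P3_ONC, against 1.91%, 1.49%, 2.94% and 2.23% in P3_NTC. The ratio was 2.03-fold higher in P3_ONC with no overlap (exact permutation test, two-sided p = 0.0286, adjusted p = 0.105). At E20 it ran between 2.92% and 3.20% in E20_ONC against 1.55% to 1.83% in E20_NTC. At P1 it ran between 1.84% and 3.40% in P1_ONC against 1.59% to 2.01% in P1_NTC. Only P1_ONC_4 was above that naïve range, with P1_ONC_1 at 2.01% and P1_ONC_2 at 1.84%. Exons of the pair share 26 bases, 2.73% of Gm39119, and Fgf15 also shares 761 exon bases, 24.9% of its own, with Gm26793 on the opposite strand. The strand setting of the counting is not given in the sources used here, so fragments of those stretches cannot be told apart, and the Fgf15 counts and the ratio are uncertain to that extent.

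Other genes of the list were not called. Etv4, an ETS factor switched on by FGF signals, was at 5.82, 4.42, 5.32 and 2.98 FPKM in P3_ONC, against 3.96, 2.87, 2.08 and 4.04 FPKM in P3_NTC. P3_ONC_4 was again the exception (log2 fold change 0.52, adjusted p = 0.375). Fgf3, a ligand of the same family, averaged 0.600 ± 0.228 FPKM in P3_ONC and 0.487 ± 0.286 FPKM in P3_NTC (SD, n = 4 each), well within the spread. All 4 genes of the list had positive fold changes, with a median of 0.75 against -0.13 over the described genes tested. Fgf15, Gm39119 and Fgf3 were named by the study as lower in P3_NTC than in E20_NTC. For them positive fold changes were favoured in advance, and Fgf15 and Gm39119 also share a locus.

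Of the 3 progenitor and neurogenic genes, 2 had positive fold changes and 1 a negative one. Foxn4, a factor of progenitors that make amacrine and horizontal cells, was at 18.9, 12.8, 14.3 and 9.67 FPKM in P3_ONC, against 10.3, 6.68, 6.49 and 11.6 FPKM in P3_NTC (log2 fold change 0.67 ± 0.39 SE, adjusted p = 0.252). Only P3_ONC_4 was within the naïve range. Aldh1a3, an enzyme that makes retinoic acid in the ventral retina, was at 1.91, 2.21, 3.17 and 1.31 FPKM in P3_ONC, against 0.299, 0.671, 0.609 and 2.10 FPKM in P3_NTC. A single naïve library, P3_NTC_4, reached the crushed range, and without it Aldh1a3 was called higher at 2.03, against 1.22 ± 0.59 SE with all libraries (adjusted p = 0.207). Atoh7, the factor needed to make ganglion cells, averaged 6.98 ± 0.99 FPKM in P3_ONC and 7.63 ± 2.80 FPKM in P3_NTC (SD, n = 4 each), a log2 fold change of -0.13 ± 0.40 SE.

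All 7 patterning and lineage factors tested had negative fold changes, between -0.95 and -0.12 with a median of -0.52, and none was called. Pax7, a paired box factor, was at 6.91, 5.13, 2.74 and 11.6 FPKM in P3_ONC, against 5.74, 16.2, 19.9 and 8.93 FPKM in P3_NTC. Its libraries ranked as the photoreceptor genes did in both groups, and P3_NTC_1 and P3_NTC_4 lay among the crushed retinas (log2 fold change -0.95 ± 0.55 SE, adjusted p = 0.252). Sall3, a zinc finger factor of horizontal cells and cones, was at 3.41, 2.70, 2.71 and 3.75 FPKM in P3_ONC, against 2.25, 7.58, 5.43 and 3.11 FPKM in P3_NTC (log2 fold change -0.55). Sox1 was at 0.109 FPKM or less in every P3_ONC library, and its P3_NTC mean of 0.175 rested on P3_NTC_4 at 0.356 FPKM (log2 fold change -0.87, and -0.27 without that library). The Iroquois factors Irx1 and Irx2, the nuclear receptor Hnf4g and the ETS factor Spdef had log2 fold changes of -0.46, -0.52, -0.12 and -0.38. All 4 of these overlapped between the groups.

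Pax2 and Mlc1 mark the optic nerve head and its astrocytes. Pax2, a paired box factor of the optic stalk, was at 0.853, 1.08, 0.755 and 0.701 FPKM in P3_ONC, against 1.83, 1.81, 0.195 and 1.36 FPKM in P3_NTC. P3_NTC_3 was the lowest of all 8 libraries, below every crushed retina. Mlc1, a membrane protein of astrocyte end-feet, was at 2.76, 4.50, 3.81 and 3.08 FPKM in P3_ONC, against 8.75, 9.97, 1.38 and 3.00 FPKM in P3_NTC. P3_NTC_1 and P3_NTC_2 were above every crushed retina and P3_NTC_3 below every one. The log2 fold changes were -0.62 ± 0.59 SE for Pax2 and -0.71 ± 0.58 SE for Mlc1 (adjusted p = 0.460 and 0.390).

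Of the 4 zinc finger genes, 2 had positive and 2 negative fold changes, and none was called. Zfp692, a factor with C2H2 zinc fingers, was at 30.4, 25.9, 32.9 and 19.0 FPKM in P3_ONC, against 17.8, 11.9, 14.1 and 15.7 FPKM in P3_NTC. Every crushed retina was above every naïve one, yet the log2 fold change of 0.86 ± 0.36 SE did not pass (adjusted p = 0.197). With all libraries Zfp692 was called by limma on log2(FPKM + 1) (adjusted p = 0.0465) and in 1 fit of all 6 groups (adjusted p = 0.00875). Gm39119, Zfp692 and Cpne1 were the 3 genes with all P3_ONC libraries above all P3_NTC libraries, 6.52% of the 46 genes of the table. Cpne1, a calcium-dependent membrane-binding protein, had 13, 13, 10 and 11 fragments in P3_ONC, against 5, 7, 2 and 10 in P3_NTC. In FPKM the closest pair was P3_ONC_3 at 0.146 and P3_NTC_4 at 0.136, and the log2 fold change was 1.01 ± 0.47 SE (adjusted p = 0.197). Cpne1 shares 83.3% of its exon bases with Gm28036 on the same strand, so its count is uncertain.

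Zfp296 had 17, 14, 9 and 4 fragments in P3_ONC, against 4, 5, 4 and 3 in P3_NTC. P3_ONC_4 was the exception once more (log2 fold change 1.46 ± 0.51 SE, adjusted p = 0.121), and Zfp296 was called higher without it, at 1.75. Zfp296 shares 12.9% of its exon bases with Gemin7 on the opposite strand, so its low counts are uncertain too. Zfp97 and Zfp960 are neighbours on chromosome 17 that share 80.2% of the 50-base windows of Zfp97, so their counts may be mixed. Zfp97 averaged 1.24 ± 0.34 FPKM in P3_ONC and 1.43 ± 0.36 FPKM in P3_NTC (SD, n = 4 each). Zfp960 averaged 1.08 ± 0.21 FPKM in P3_ONC and 1.42 ± 0.37 FPKM in P3_NTC, and both pairs of groups overlapped.

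Creb5, a factor of the CREB family, was at 1.20, 1.01, 1.52 and 0.670 FPKM in P3_ONC, against 0.604, 0.468, 0.593 and 0.763 FPKM in P3_NTC. All crushed values were above the naïve mean, but P3_ONC_4 was below P3_NTC_4 (log2 fold change 0.86 ± 0.39 SE, adjusted p = 0.197). Without P3_ONC_4 Creb5 was called higher, at 1.03. Nfatc4, a factor activated by calcineurin, was at 2.74, 1.09, 1.30 and 1.24 FPKM in P3_ONC, against 1.15, 0.911, 0.521 and 0.963 FPKM in P3_NTC, and P3_ONC_1 carried much of its log2 fold change of 0.85. Bhlhe41, a repressor of the circadian clock, differed by 0.31 on the log2 scale, within the spread. AW822073 had 0, 0, 3 and 12 fragments in P3_ONC, against 15, 2, 12 and 10 in P3_NTC, and without P3_ONC_4 it was called lower at -3.11, against -1.36 with all libraries. Its neighbour Gm4981 had 4, 0, 9 and 9 fragments in P3_ONC, against 10, 3, 11 and 10 in P3_NTC.

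The last genes were low and close between the groups. Ecel1, an endopeptidase-like enzyme of injured neurons, averaged 0.185 ± 0.078 FPKM in P3_ONC and 0.239 ± 0.127 FPKM in P3_NTC (SD, n = 4 each). Aspg, an asparaginase, averaged 0.124 ± 0.040 FPKM in P3_ONC and 0.101 ± 0.041 FPKM in P3_NTC. Dio3os, a noncoding RNA beside the gene of a thyroid hormone deiodinase, had 85 fragments in P3_ONC and 85 in P3_NTC, with a log2 fold change of 0.05 ± 0.48 SE. Changes of the size of 1 SE would not have been seen for any of these genes, and larger ones could have been missed.

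Spread within the groups was wide for many genes. The median coefficient of variation over the 43 described genes tested was 36.7% in P3_ONC and 51.5% in P3_NTC, and it was larger in P3_ONC for 15 genes and in P3_NTC for 28. It passed 100% in P3_ONC for 6 genes and in P3_NTC for 3. Leaving out P3_ONC_4 gave 6 genes higher (Creb5, Fos, Gm39119, Nfkb2, Zfp296 and Zfp692) and 5 lower (AW822073, Gngt1, Guca1a, Slco1a4 and Ttr), the most of any library left out. Without P3_ONC_4 the median over the genes tested also moved by -0.15 on the log2 scale, and without P3_NTC_1 it moved by 0.28. Fold changes given here with 1 library left out include that shift. Where the library left out was one that made the groups overlap, a call without it was favoured in advance. Ttr and Slco1a4 were called lower with every library left out in turn, and without P3_ONC_1, the library with almost no Kdm5d, all 3 called genes kept their calls.

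The crush effect at P3 was set against that at E20 with an interaction term over the 14 libraries of both ages, called at an adjusted p under 0.1. It differed for 13 of 46 genes, 28.3%, of which 12 were described genes. The study named Mlc1, Zfp97, Zfp960, Spdef, Irx1, Hnf4g, Gm4981, AW822073 and Kdm5d for crush at E20 in this series. Genes that also changed at P3 were left out of its picks, so for those named a difference was favoured in advance. Ttr, Slco1a4, Creb5 and Dio3os were named for age, from naïve groups that also enter this test. The share called therefore describes chosen genes only. Ttr and Slco1a4 kept the call of a difference from E20 under every alternative. With median ratios Creb5 was the only other described gene that did, and Zfp97, Zfp960, Spdef, Dio3os, Mlc1, Irx1, Hnf4g, Gm4981 and AW822073 lost it. Creb5 in turn lost it with limma on log2(FPKM + 0.1) and on log2(FPKM + 1). There Spdef, Dio3os, Irx1, Hnf4g and AW822073 kept it in both. At an adjusted p under 0.05, 7 genes remained, which were Ttr, Slco1a4, Creb5, Zfp97, Zfp960, Spdef and Kdm5d. Ttr had a log2 fold change of -4.47 at P3 and 1.15 at E20, a difference of -5.61 ± 1.12 SE (adjusted p = 0.00968). Slco1a4 had under 10 fragments at E20 and was not tested there alone, and the difference was -5.74 ± 1.58 SE (adjusted p = 0.0328). Creb5, Gm4981 and AW822073 had a lower fold change at P3 (0.86, -0.62 and -1.36) than at E20 (2.38, 2.45 and 2.19). Another 7 had fold changes closer to 0 at P3 than at E20: Zfp97 (-0.21 at P3, -1.98 at E20), Zfp960 (-0.39, -1.97), Spdef (-0.38, -2.23), Dio3os (0.05, -1.55), Mlc1 (-0.71, -3.48), Irx1 (-0.46, -2.27) and Hnf4g (-0.12, -1.82). The other called gene was Kdm5d, which had 0 fragments in all E20_ONC libraries against 1135, 799 and 0 in E20_NTC, so the E20 groups differed by a Y-linked gene as well, and its part in these differences was not tested.

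Against P1, called in the same way over 15 libraries, the difference of effects was called for 0 of 46 genes, 0%. There were 12 genes at an unadjusted p under 0.05, 6 called by DESeq2 and 7 in 1 fit of all 6 groups, and the lowest adjusted p was 0.115. The log2 fold change of Ttr was -4.47 at P3 and -3.07 at P1, a difference of -1.39 ± 0.91 SE (adjusted p = 0.343). For Slco1a4 it was -4.42 ± 0.66 SE at P3 and -4.18 ± 1.48 SE at P1, a difference of -0.25 ± 2.84 SE. Slco1a4 had 4 fragments in all in P1_ONC, and P1_NTC_3 held 75 of the 110 in P1_NTC. For Cryaa the log2 fold change was 3.28 ± 1.44 SE at P3 and 4.56 ± 1.14 SE at P1. Fosb had 1.41 at P3 and 4.93 at P1, a difference of -3.52 ± 1.31 SE (adjusted p = 0.115). Both comparisons between ages use the same P3 libraries, and a p above the threshold does not show that effects were alike.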

How the data were processed

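Single mouse retinas were sequenced as poly(A) RNA with paired ends. The authors deposited fragment counts per gene and FPKM for the same genes. Per the labels and the submitters' processing notes, reads were aligned to mm10 with HISAT2 2.0.5 and counted with featureCounts 1.5.0-p3. The FPKM values were computed by the authors from counts, gene length and the library total. The strand setting is not given in the sources used here. Genes on the opposite strand share exon bases with Cryaa (13.15% of its own), Bhlhe41 (19.05%) and Nfkb2 (11.6% and 6.52%). Those counts are uncertain to that extent.

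The table used here had 51 entries, and 5 repeated ones were dropped. Library totals were recovered from count, FPKM and length, and every gene gave the same total (largest relative difference 1.1e-14). Counts were tested with edgeR 4.0.16 (R 4.3.3) by the quasi-likelihood F test, two-sided, with these totals as library sizes, no composition factor and no abundance trend, for genes with at least 10 summed counts. Standard errors are the fold change over the square root of F. The study's thresholds were kept: adjusted p under 0.1 together with fold over 1.5. Differences of effects between ages were interaction terms. Ratios of 2 genes within a library were compared by exact permutation over 70 splits. Alternatives were DESeq2 1.42.0, limma 3.58.1 on log2(FPKM + 0.1) and log2(FPKM + 1), other scalings and filters, a replicate block and leaving out each library. The calculations were tested on simulated data with independent genes, the same spread for each and large changes only. Calls for small changes, or with library orders shared between genes, were not tested in this way. Other calculations used Python 3.11.15.

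Every gene of the table other than Kdm5d was described, except 1 that is not reported here but stayed in every fit and in the adjustment over 11 ratios. The genes and lists were chosen with earlier results of these data known. Annotation overlaps came from GENCODE, and promoter windows of 250 bases were found in RefSeq (GRCm38.p6) for 33 of the 44 genes.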

Additional observations from a re-analysis of the deposited data

Results flagged for a closer look

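Among 88 groups of 4 libraries (44 genes, P3_ONC and P3_NTC), 7 held a library far from the other 3 by Dixon's test, where chance alone gives about 1 in 20, or 4.4. In P3_ONC there were 5. Fosb was at 2.18 FPKM and Egr1 at 25.0 FPKM in P3_ONC_3, far above the rest of the group. Lcn2 was high in P3_ONC_4 at 4.41 FPKM, and Nfatc4 was high in P3_ONC_1 at 2.74 FPKM. Gm39119 was low in P3_ONC_4 at 0.965 FPKM. In P3_NTC there were 2: Sox1 at 0.356 FPKM in P3_NTC_4 and Ecel1 at 0.428 FPKM in P3_NTC_1.

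For 12 genes the crush effect at P3 differed from that at E20 by a test of the difference itself. Mlc1, Zfp97, Zfp960, Spdef, Irx1, Hnf4g, Gm4981 and AW822073 had been named by the study for crush at E20. Its picks left out genes that also changed at P3, so for these genes a difference was favoured in advance. Ttr, Slco1a4, Creb5 and Dio3os were named for age, from naïve groups that also enter this test. For them too a difference was favoured in advance. The difference of log2 fold changes, P3 minus E20, was -5.61 for Ttr, -5.74 for Slco1a4, -3.54 for AW822073, -3.07 for Gm4981 and -1.52 for Creb5. It was 2.77 for Mlc1, 1.85 for Spdef, 1.81 for Irx1, 1.77 for Zfp97, 1.70 for Hnf4g, 1.60 for Dio3os and 1.58 for Zfp960. With median ratios as the scaling, Ttr, Slco1a4 and Creb5 kept the call and the other 9 lost it. Creb5 lost it with limma on log2(FPKM + 0.1) and on log2(FPKM + 1), where Ttr and Slco1a4 kept it. Zfp97 and Zfp960 share much of their sequence and are not 2 separate observations.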

How the results depend on the processing

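Ttr and Slco1a4 were called lower under all 20 alternatives. The count of genes higher, 1 as reported, was 2 with DESeq2, 2 with limma on log2(FPKM + 1), 3 with the replicate block (Cryaa and Fos added, at 2.49 and 1.99), 11 with 1 fit of all 6 groups, and 0 to 6 with 1 library left out. The count lower, 2 as reported, was 3 with DESeq2 and 3 with median ratios (Gngt1 added in both). It was 5 with 1 fit of all 6 groups and 2 to 5 with 1 library left out. The fit of all 6 groups added Aldh1a3, Creb5, Cryaa, Fgf15, Fos, Foxn4, Nfatc4, Nfkb2, Zfp296 and Zfp692 as higher. It added Gngt1, Guca1a and Nrl as lower. Same-numbered libraries of the groups correlated at 0.35, 0.67, -0.10 and -0.02 across genes, and 2 of the 4 numbers did not correlate best with themselves, so the replicate numbers were not taken as pairs. Median ratios moved the median fold change by -0.19 and limma on log2(FPKM + 1) by 0.15. Genes that differed from E20, 13 as reported, were 4 with median ratios (Ttr, Slco1a4, Creb5 and Kdm5d), 7 at an adjusted p under 0.05, 8 with limma on log2(FPKM + 1), and 8 to 14 with 1 library left out. Against P1 there were 6 with DESeq2, 7 with 1 fit of all 6 groups, 1 with limma on log2(FPKM + 1), 7 without Kdm5d and 0 to 9 with 1 library left out. Dio3os changed sign to -0.066 with TMM factors and -0.13 with median ratios. With 1 library left out, log2 fold changes that crossed 0 ran between -0.19 and 0.35 for Dio3os, -0.34 and 0.13 for Hnf4g, -0.012 and 2.30 for Fosb, -0.36 and 0.021 for Atoh7, -0.68 and 0.10 for Irx1, -0.55 and 0.067 for Ecel1, and -2.75 and 0.53 for Lcn2. Log2 ratios that did so ran between -0.11 and 0.14 for Slco1a4/Ttr (0.075 with 0.5 added to both counts, a setting chosen after seeing the data), -0.12 and 0.008 for Cnga1/Nrl, -1.06 and 0.017 for Fosb/Fos, and -0.46 and 0.10 for Mlc1/Pax2. The cause of these moves was not tested. Of 854 gene values under alternatives, 804 stayed on their side of the threshold in the same direction, 32 were newly called, 4 lost the call (all Gm39119) and 14 changed sign. With 4 retinas a group and few fragments for low genes, changes near 1 SE were not detectable. Larger ones also failed to pass, such as Gngt1 at -1.53 ± 0.49 SE and Fos at 2.29 ± 0.79 SE.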
